A study of Bos taurus with 32 samples.

Results

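The levels of bta-miR-103 and bta-miR-107 were examined in the subcutaneous fat (backfat) and the visceral fat (perirenal fat) of beef steers fed a control or a high fat diet. Both were taken by their names on the array, and they are 2 miRNAs with 40 of the 13440 spots that each array held for bovine miRNAs, 20 per miRNA. Both were detected on all 32 arrays. The steers were yearling Hereford and Aberdeen Angus crosses. The control diet was barley grain and barley silage without flaxseed, and in the high fat diet flaxseed replaced part of the barley grain, with both diets fed until slaughter. Each of the 16 steers, 8 per diet and here called control and high fat steers, gave a sample of both depots. Total RNA of each sample was labelled with the single dye Cy3 and hybridized to 1 Agilent miRNA array, which made 4 groups of 8 arrays.

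The pair belongs to a small vertebrate miRNA family. A miRNA guides a silencing complex to messenger RNAs that pair with its seed, the bases near its 5′ end. The mature forms of miR-103 and miR-107 share their seed and are almost identical, and both lie in introns of pantothenate kinase genes, whose products catalyse the rate-limiting step of coenzyme A synthesis. In the RefSeq annotation of the assembly ARS-UCD2.0, MIR103-1 lay inside PANK3, MIR103-2 inside PANK2 and MIR107 inside PANK1. In mice both miRNAs are known as regulators of insulin sensitivity that act in adipocytes through caveolin-1, a membrane protein that stabilizes the insulin receptor.

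Each member had 2 probes with 10 spots each. The intensity of a member was its total over the probes, background subtracted and not scaled between arrays. For bta-miR-103 the total was the sum of both probes on all 32 arrays. For bta-miR-107 it was the sum of both probes on all 16 high fat arrays, but on 7 of the 8 control subcutaneous arrays and 5 of the 8 control visceral arrays it held the brighter probe alone. The dimmer probe of bta-miR-107 had 0 of its 80 spots well above background in subcutaneous fat in control steers and 6 of 80 in visceral fat, against 80 of 80 in each high fat group. Its spots were imprecise in control steers, with a median coefficient of variation within an array of 50.1% in subcutaneous fat and 57.4% in visceral fat. The brighter probe was well above background at 78 of 80 and 79 of 80 control spots, with median coefficients of variation of 5.92% and 7.06%. The scaled diet difference of bta-miR-107, the ratio of the members and the depot difference in high fat steers are therefore also given for the brighter probe alone. The ranks and correlations of bta-miR-107 use the total. Whether RNA of one member also bound to probes of the other was not tested.

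Before scaling, both members were far brighter on the arrays of the high fat diet. The intensity of bta-miR-103 was 28.01 at the lowest, 72.9 at the median and 153.7 at the highest in subcutaneous fat of control steers, and 589.3, 959.7 and 1617 in those fed the high fat diet. Visceral fat had corresponding intensities of 36.9, 72.7 and 127.0 in control steers and 385.0, 577.4 and 1284 in high fat steers. For bta-miR-107 they were 6.59, 20.3 and 35.7 in control and 206.4, 350.1 and 633.2 in high fat subcutaneous fat. In visceral fat they were 9.95, 17.8 and 40.6 in control steers and 160.0, 222.4 and 509.0 in high fat steers. The diets did not overlap in either depot for either member. How many other miRNAs were free of overlap before scaling was not counted. A rise at this stage was common among the 240 miRNAs tested without scaling. For subcutaneous fat 210 passed limma's test between diets (adjusted p under 0.05), 206 of them as higher on the high fat diet. Visceral fat had 172 that passed, 165 of them as higher.

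The arrays themselves differed between diets in the same direction. The summed intensity of all miRNAs had a median 5.42 times higher on the high fat arrays (96888 to 366714 against 26021 to 79290 in control steers), and 169 to 259 miRNAs were detected per array against 115 to 176. Spike-in RNA added at labelling was 0.848 times as bright on the high fat arrays and the local background 0.957 times. All arrays of a group lay on the same slide, and both slides of a diet went through the scanner on the same day, so slide and group, and scan day and diet, cannot be told apart. Against this background, the median intensity of bta-miR-103 was 13.2 times higher in high fat steers in subcutaneous fat and 7.94 times higher in visceral fat. The median of bta-miR-107 was 17.3 and 12.5 times higher, from totals that lacked the dimmer probe on most control arrays. Its brighter probe alone had median intensities of 20.26 in control and 309.3 in high fat subcutaneous fat. In visceral fat these were 17.77 and 191.9. Fat is a mixture of adipocytes and other cells, and in such bulk samples fewer cells of a type and less RNA per cell cannot be told apart.

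To compare arrays, each intensity was divided by the 75th percentile of its array over the 91 miRNAs that were detected on all 32 arrays, and the log2 of that value is called the scaled level. The scaled level of bta-miR-103 in subcutaneous fat was -2.05 at the lowest, -1.63 at the median and -1.002 at the highest in control steers, and -1.17, -0.94 and -0.76 in high fat steers. These groups overlapped, with 5 of 8 high fat samples above all control samples. In visceral fat it was -1.95, -1.36 and -0.94 in control steers and -0.86, -0.78 and -0.30 in high fat steers, without overlap. The scaled level of bta-miR-107 in subcutaneous fat was -4.12, -3.74 and -2.92 in control steers and -2.68, -2.38 and -2.16 in high fat steers. In visceral fat it was -3.79, -3.21 and -2.72 in control steers and -2.39, -2.03 and -1.65 in high fat steers. The diets did not overlap for bta-miR-107 in either depot. Groups in which all high fat samples lay above all control samples were found for 33% of the 233 miRNAs tested in subcutaneous fat and 28.3% in visceral fat.

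**Figure D1:**
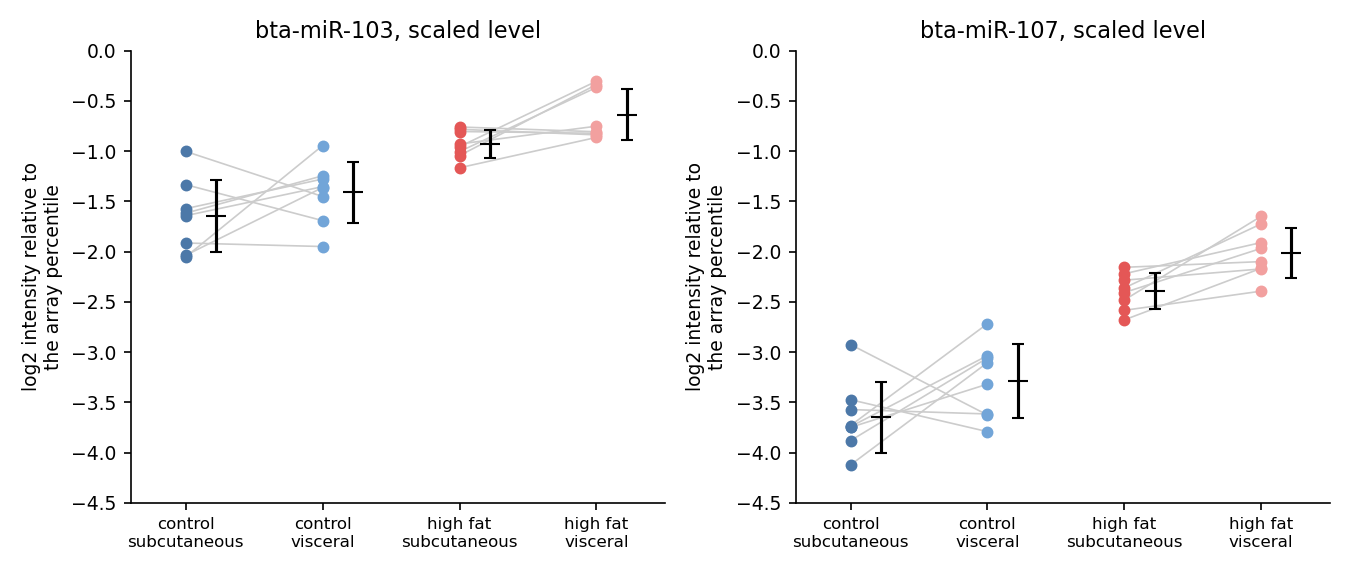
Scaled level of each member (y axis, log2 intensity relative to the 75th percentile of the array) in the 4 groups of 8 samples. Each point is 1 array, grey lines join the depots of a steer, and black marks are the mean and SD. Both members sit higher in the high fat groups, and the diets overlap only for bta-miR-103 in subcutaneous fat.

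The order of the mean levels was the same for both members, from control subcutaneous through control visceral and high fat subcutaneous to high fat visceral fat. The means of bta-miR-103 were -1.65 ± 0.36, -1.41 ± 0.30, -0.93 ± 0.14 and -0.64 ± 0.25 (SD, n = 8 each). The means of bta-miR-107 were -3.65 ± 0.35, -3.28 ± 0.37, -2.40 ± 0.18 and -2.01 ± 0.25 (SD, n = 8 each). Neighbours in this order that differ by depot alone did not pass the test of scaled levels, and the control visceral and high fat subcutaneous groups differ in both diet and depot and were not compared by a test.

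Both members were higher in high fat steers in both depots. In subcutaneous fat bta-miR-103 was 1.64 times higher (log2 difference 0.72, SE 0.14, limma adjusted p = 3.64e-05) and bta-miR-107 2.38 times higher (1.25, SE 0.15, adjusted p = 8.87e-09). The visceral level of bta-miR-103 was 1.71 times higher (0.77, SE 0.14, adjusted p = 1.14e-05) and bta-miR-107 2.42 times higher (1.27, SE 0.15, adjusted p = 6.56e-09). Passing this test was common, since 76% of the 233 miRNAs did so in subcutaneous fat and 71.7% in visceral fat, and 41.6% and 42.1% were called higher in high fat steers. Of the called miRNAs, 54.8% were higher in subcutaneous and 58.7% in visceral fat, shares that ran from 14.1% to 99.5% and from 12.7% to 99.5% over 7 other scalings.

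The members were also set against the 91 miRNAs detected on all arrays, a comparison that no single factor per array can change. The median log2 diet difference of the 91 miRNAs was -0.91 in subcutaneous fat and -0.80 in visceral fat, so that bta-miR-103 lay 1.62 and 1.57 above that median and bta-miR-107 lay 2.16 and 2.07 above it. These distances depend on the reference. Over all 233 miRNAs tested, including those not detected on some arrays, the median was 0.10 and 0.17, closer to both members. Of the other 90 among the 91 miRNAs, 68 had a lower diet difference than bta-miR-103 in either depot. For bta-miR-107 it was 77 in subcutaneous fat and 73 in visceral fat. The brighter probe of bta-miR-107 alone gave a log2 diet difference of 1.09 in subcutaneous (adjusted p = 1.46e-08) and 1.14 for visceral fat (adjusted p = 6.55e-09). The 2 probes of bta-miR-103 gave 0.69 and 0.73 in subcutaneous and 0.84 and 0.76 in visceral fat.

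**Figure D2:**
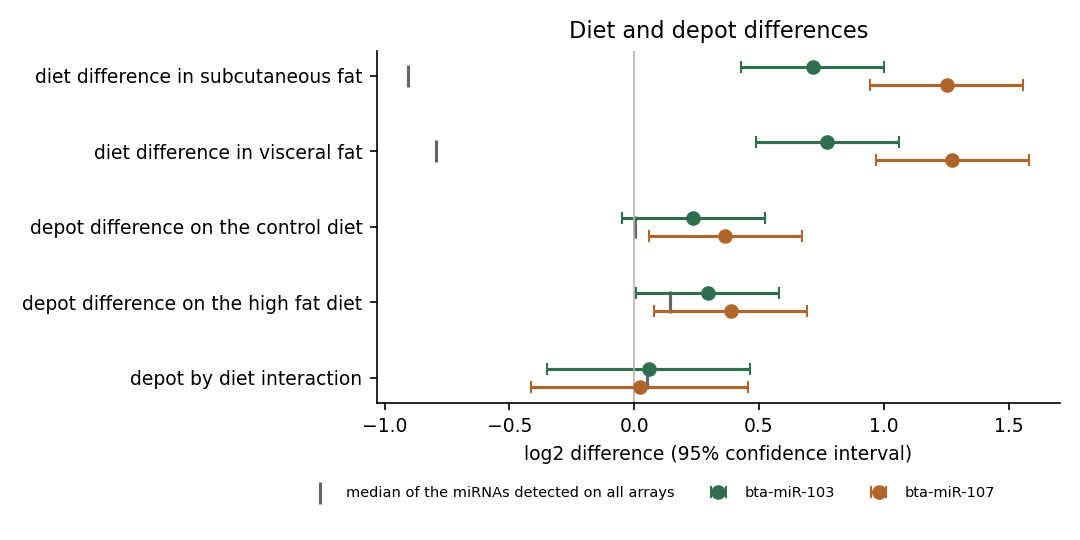
Log2 differences of the scaled level (x axis, with 95% confidence intervals) for the diet, the depot and their interaction, for each member, with the median of the 91 miRNAs detected on all arrays as a grey tick. The diet intervals of both members lie above 0 and above the median in both depots, whereas the depot intervals lie nearer to 0 and the interaction intervals include it. Of the depot intervals only that of bta-miR-103 in control steers includes 0. The intervals are not adjusted for the number of miRNAs tested.

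The size and the sign of the diet difference itself depended on the scaling and the background correction. Normexp, a background correction of single spots with an offset of 50, gave -0.67 (adjusted p = 4.05e-06) and -0.39 (adjusted p = 0.00316) for bta-miR-107 in subcutaneous and visceral fat. With the 75th percentile over all miRNAs, which was the value of 0.1 that stands for not detected on 15 arrays, it was -3.42 and -3.67 for bta-miR-103 and -2.89 and -3.17 for bta-miR-107 (adjusted p = 1.06e-07, 2.83e-08, 4.81e-06 and 1.15e-06). In the authors' log2 table the difference of bta-miR-103 was -0.68 in subcutaneous (adjusted p = 0.0291) and -0.30 for visceral fat (adjusted p = 0.347), and that of bta-miR-107 was -0.14 (adjusted p = 0.669) and 0.21 (adjusted p = 0.543). Scaled to the labelling spike-ins, it was 3.88 and 3.65 for bta-miR-103 and 4.42 and 4.15 for bta-miR-107. The median of the 91 miRNAs shifted with it, by -2.30 and -1.86 in the authors' table and by 2.26 and 2.08 with the spike-ins. Relative to that median, both members were higher in high fat steers under the 18 settings compared (scalings, background corrections, floors, filters, blocks and tests). Most of these could not change the distance from the median, which a factor per array, a filter, a block or another test leaves as it is. Only quantile normalization, spot intensities and normexp (offsets 50 and 1) changed it. For bta-miR-103 the distance ran from 1.20 to 1.65 in subcutaneous and from 1.37 to 1.72 in visceral fat. For bta-miR-107 it ran from 0.60 to 2.16 and from 0.80 to 2.13.

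**Figure D3:**
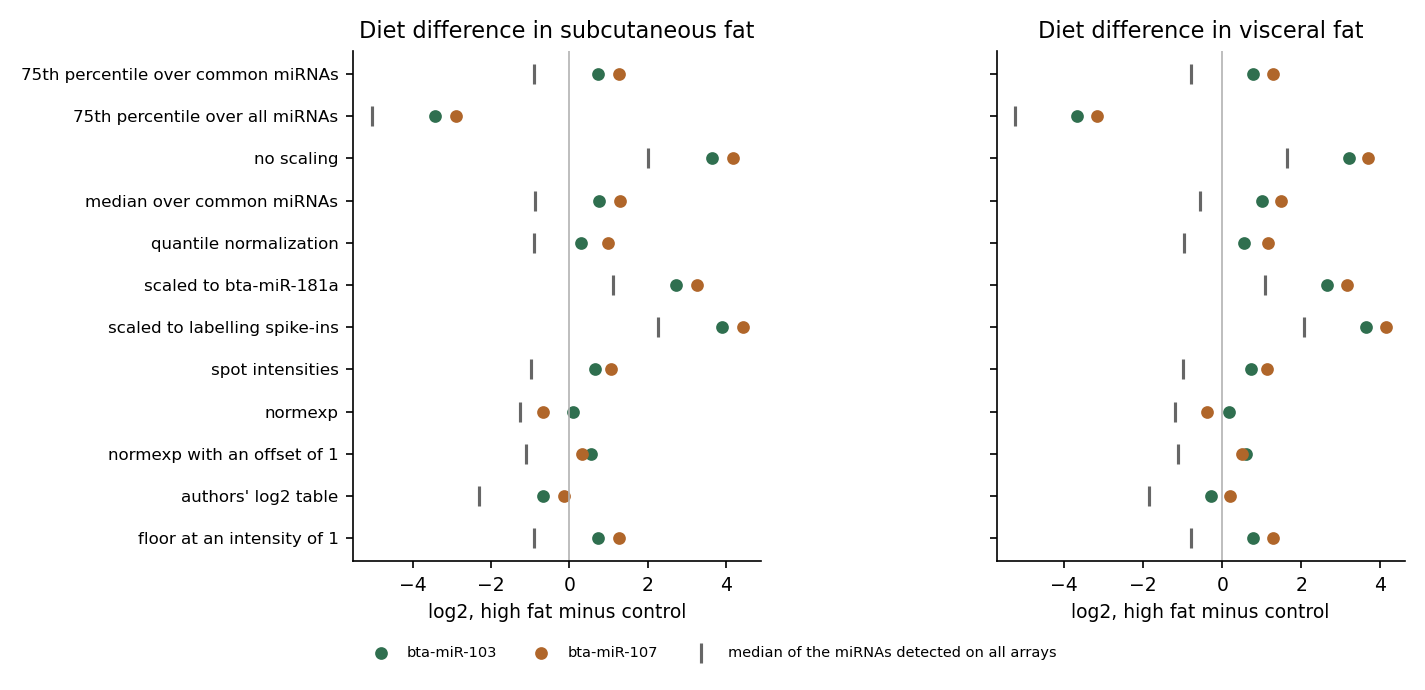
Log2 diet difference (x axis, high fat minus control) of both members and the median of the 91 miRNAs detected on all arrays (grey tick) under 12 scalings and background corrections (y axis), in each depot. The members move with the median from one setting to the next and stay to its right in each of them. A factor per array shifts the members and the median together, so most settings could not change the distance between them.

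Ranks within an array are also untouched by a factor per array. They were tested for the members only, so no share over the other miRNAs stands beside them. Among the 91 miRNAs, with 1 as the brightest, bta-miR-103 ranked 39 to 53 (median 46.5) in control and 34 to 41 (median 38.5) in high fat subcutaneous fat, and 37 to 51 (median 43.5) and 28 to 36 (median 31.5) in visceral fat. Its mean rank was 8.62 places nearer the top in high fat steers in subcutaneous fat (38.2 ± 2.12 against 46.9 ± 4.76, SD, n = 8 each; two-sided exact permutation test, adjusted p = 0.00149 over 8 rank comparisons). In visceral fat the gain was 11.8 places (31.6 ± 2.97 against 43.4 ± 4.37, SD, n = 8 each; exact permutation adjusted p = 0.000414). The rank of bta-miR-107 was 63 to 85 (median 80.0) in control and 50 to 56 (median 53.0) in high fat subcutaneous fat, and 64 to 83 (median 73.0) and 41 to 53 (median 48.0) in visceral fat. It gained 25.8 places in subcutaneous fat (53.2 ± 2.12 against 79.0 ± 6.76, SD, n = 8 each; exact permutation adjusted p = 0.000414). In visceral fat it gained 26.8 places (47.0 ± 4.04 against 73.8 ± 6.88, SD, n = 8 each; exact permutation adjusted p = 0.000414). The unadjusted exact p of 0.000155 in 3 of these 4 comparisons was the smallest that 8 against 8 samples can give. Ranked among all miRNAs of the array, bta-miR-103 gained 4.38 places in subcutaneous fat and no longer passed (exact permutation adjusted p = 0.0564).

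**Figure D4:**
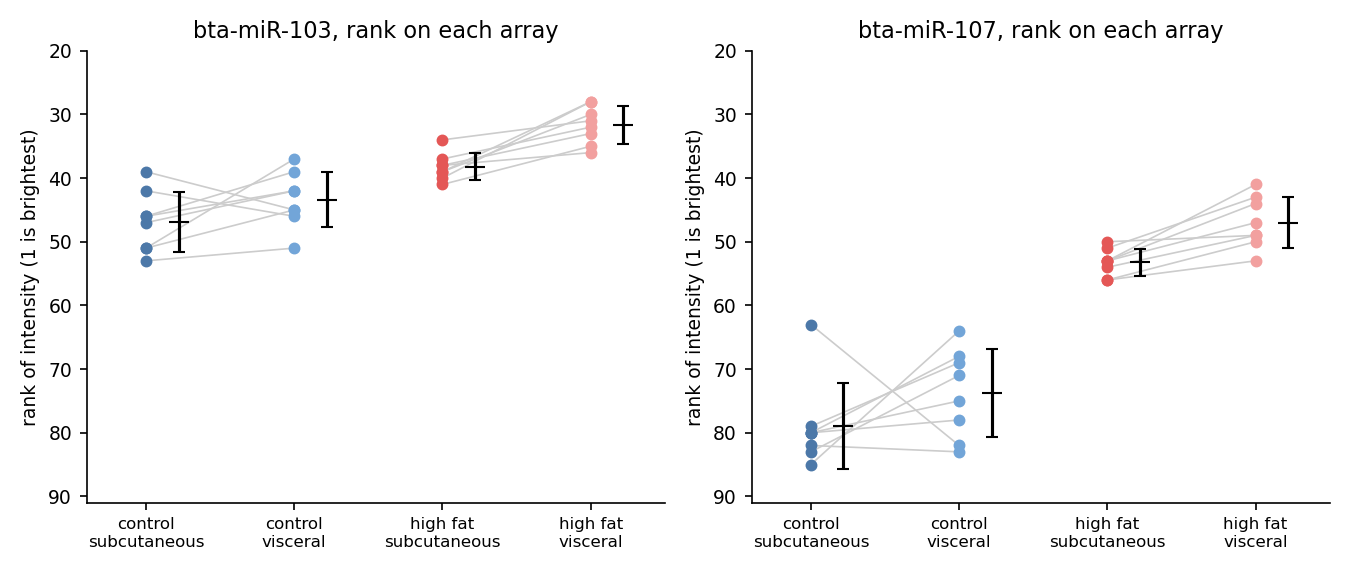
Rank of each member among the 91 miRNAs detected on all arrays (y axis, 1 is the brightest, drawn upwards) in the 4 groups. Points are arrays, grey lines join the depots of a steer, and black marks are the mean and SD. The rank of bta-miR-107 lies between 63 and 85 in control and between 41 and 56 in high fat samples.

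The ratio of the 2 members on an array is likewise free of such a factor, and it was lower in high fat steers. The total intensity of bta-miR-103 over that of bta-miR-107 was 3.16 at the lowest, 4.28 at the median and 4.80 at the highest in control subcutaneous fat, and 2.45, 2.68 and 3.54 in high fat subcutaneous fat. In visceral fat it was 2.71, 3.71 and 4.52 in control steers and 2.23, 2.50 and 3.04 in high fat steers. The ratio was below all control values in 7 of 8 high fat samples in subcutaneous fat and in 6 of 8 in visceral fat. Since probes differ in their response, it is the change of this ratio and not its size that compares the members. Its log2 fell by 0.54 in subcutaneous fat (1.47 ± 0.16 against 2.003 ± 0.22, SD, n = 8 each; two-sided exact permutation test, adjusted p = 0.00194 over 5 comparisons). In visceral fat it fell by 0.50 (1.37 ± 0.15 against 1.88 ± 0.25, SD, n = 8 each; exact permutation adjusted p = 0.00194).

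The fall was smaller when the dimmer probes, of which that of bta-miR-107 was missing from most control totals, were left out. With the brighter probe of each member alone, the log2 ratio fell by 0.37 in subcutaneous fat (1.31 ± 0.16 against 1.67 ± 0.22, SD, n = 8 each; exact permutation adjusted p = 0.00505) and by 0.38 in visceral fat (1.21 ± 0.15 against 1.59 ± 0.20, SD, n = 8 each; exact permutation adjusted p = 0.00505). The direction turned under normexp. With its offset of 50, the log2 ratio was 0.76 higher in high fat steers in subcutaneous and 0.57 higher in visceral fat (exact permutation adjusted p = 0.000389 for both), and with an offset of 1, chosen after seeing the data, it was 0.23 and 0.10 higher (exact permutation adjusted p = 0.265 and 0.446). Whether bta-miR-107 differed more between the diets than bta-miR-103 thus depended on the background correction.

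**Figure D5:**
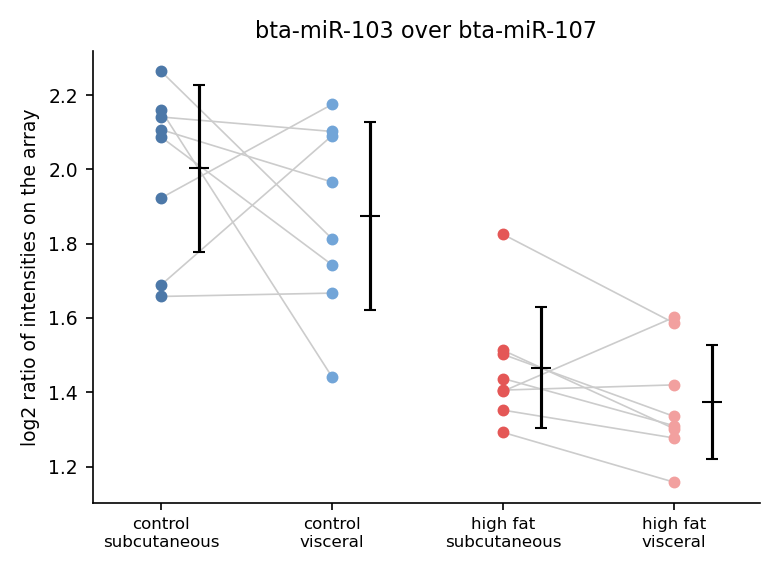
Log2 ratio of the total intensities of bta-miR-103 over bta-miR-107 on each array (y axis) in the 4 groups, with grey lines joining the depots of a steer and the mean and SD in black. The high fat samples lie from 1.16 to 1.83 and the control samples from 1.44 to 2.26.

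Between depots the differences of scaled levels were small and did not pass the test after adjustment. Before adjustment, only the 95% confidence interval of bta-miR-103 in control steers included 0. In control steers bta-miR-103 was 1.18 times higher in visceral fat (log2 difference 0.24, SE 0.14, adjusted p = 0.272) and bta-miR-107 1.29 times higher (0.37, SE 0.15, adjusted p = 0.0962), while 18.9% of the 233 miRNAs were called. In high fat steers bta-miR-103 was 1.23 times higher in visceral fat (0.29, SE 0.14, adjusted p = 0.126) and bta-miR-107 1.31 times higher (0.39, SE 0.15, adjusted p = 0.0534), with 26.2% of the miRNAs called. Within steers the scaled level of bta-miR-103 was higher in visceral fat in 5 of 8 control steers and in 5 of 8 high fat steers. The visceral level of bta-miR-107 was higher in 5 of 8 control steers, where the difference ran from -0.70 to 1.02, and in 8 of 8 high fat steers, where it ran from 0.06 to 0.83.

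Mean ranks differed between the depots in high fat steers. There bta-miR-103 stood 6.62 places nearer the top in visceral fat (31.6 ± 2.97 against 38.2 ± 2.12, SD, n = 8 each; exact permutation adjusted p = 0.00124) and bta-miR-107 6.25 places (47.0 ± 4.04 against 53.2 ± 2.12, SD, n = 8 each; exact permutation adjusted p = 0.00269). For each member 6 of 8 visceral samples ranked above all subcutaneous ones and 2 lay within the subcutaneous range, so the depots overlapped. How many of the other ranked miRNAs did the same was not computed. In control steers the gains of 3.5 and 5.25 places did not pass (exact permutation adjusted p = 0.161 for both). The scaled level of bta-miR-107 in high fat steers passed under several other settings, among them its brighter probe alone (0.36, adjusted p = 0.0476), and was lower in visceral fat without scaling (-0.48, adjusted p = 0.198) and with the spike-ins (-0.13, adjusted p = 0.782). In control steers it passed without steer 108 (0.52, adjusted p = 0.00892), whose subcutaneous level was the highest of its group, and without steer 111 (0.46, adjusted p = 0.0314).

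The diet difference was not shown to differ between depots for either member. The depot by diet interaction was 0.06 for bta-miR-103 (95% confidence interval -0.35 to 0.46, adjusted p = 0.954) and 0.02 for bta-miR-107 (-0.41 to 0.46, adjusted p = 0.986). It passed for 1.72% of the 233 miRNAs. The log2 ratio of the members had an interaction of 0.04 (exact permutation adjusted p = 0.801, 8 steers per diet), and its visceral minus subcutaneous difference was -0.13 in control and -0.09 in high fat steers (exact permutation adjusted p = 0.372 for both).

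Within a group the members varied together to a degree that did not hold after correction. Pearson's r of their scaled levels was 0.80 in control subcutaneous, 0.73 in control visceral, 0.51 in high fat subcutaneous and 0.81 in high fat visceral fat (n = 8 each), with exact permutation p of 0.0177, 0.0354, 0.197 and 0.0170 and adjusted values of 0.0706, 0.0944, 0.315 and 0.0706 over 8 relations. Spearman's rho was 0.64, 0.83, 0.43 and 0.79, with exact permutation p of 0.0962, 0.0154, 0.299 and 0.0279 and adjusted values of 0.256, 0.112, 0.479 and 0.112. Without the 2 samples farthest from the median, r was 0.62, 0.86, 0.81 and 0.51. Both values of a pair come from the same array and share its scaling.

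Between the depots of a steer the levels showed no correlation that passed the test. For bta-miR-103 the correlation of the visceral with the subcutaneous level was r = -0.21 and rho = -0.33 in control steers (n = 8, exact permutation p = 0.614 and 0.428, adjusted 0.614 and 0.571), and r = -0.37 and rho = -0.19 in high fat steers (exact permutation p = 0.364 and 0.665, adjusted 0.486 and 0.665). For bta-miR-107 it was r = -0.62 and rho = -0.57 in control steers (exact permutation p = 0.0864 and 0.151, adjusted 0.173 and 0.302), and r = 0.23 and rho = 0.19 in high fat steers (exact permutation p = 0.572 and 0.665, adjusted 0.614 and 0.665). Without the 2 farthest samples r was 0.10 and -0.87 for bta-miR-103, and -0.78 and 0.26 for bta-miR-107.

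The miRNAs with the pattern most like the members were then sought among the 91, as a description over 32 arrays that share the diet difference. Most like bta-miR-103 were bta-miR-107 (r = 0.93), the endothelial bta-miR-126 (0.91) and bta-miR-2478 (0.89), against a median of -0.45 over the other 90. Most like bta-miR-107 were bta-miR-126 (0.98), bta-miR-103 (0.93) and bta-miR-26a (0.93), against a median of -0.64. After the mean of each group was subtracted, bta-miR-103 was most like bta-miR-361 (0.91), bta-miR-99b (0.80) and bta-miR-107 (0.75), and bta-miR-107 most like bta-miR-151* (0.90), bta-miR-126 (0.88) and bta-miR-25 (0.79), with medians of 0.18 and 0.19. In that measure bta-miR-103 was in place 8 for bta-miR-107.

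The miR-15 and miR-16 family, which overlaps the members in its seed and restrains cell cycle and survival genes, moved mostly in the same direction between diets. Of its 8 listed miRNAs 7 were on the array and tested, and in each depot 6 were higher and 1 lower in high fat steers, with a median log2 difference of 2.18 in subcutaneous and 2.37 in visceral fat beside 0.10 and 0.17 over all 233. Of those 233, as given above, 76% and 71.7% were called, 41.6% and 42.1% as higher. In subcutaneous fat bta-miR-15a rose by 2.57 (adjusted p = 1.08e-08). bta-miR-424, detected on no control array and on all 16 high fat arrays, was at least 6.38-fold higher in subcutaneous and 2.24-fold higher in visceral fat. That bound sets the mean of the high fat group against the mean of the lowest intensity called detected on each control array. This miRNA, counted among the 6 higher, passed the filter on detection (at least 8 arrays) through the high fat arrays alone. Without a detected control value it could not come out lower, so no p is given for its diet difference. In visceral fat bta-miR-16b, detected on 6 of 8 control arrays and on the others at the floor (a common lowest scaled level of -7.22, given to lower values), rose by 2.55 (adjusted p = 3.79e-08) and bta-miR-15a by 2.50 (adjusted p = 2.00e-08). The member that went the other way was bta-miR-15b, with -1.26 in subcutaneous (adjusted p = 1.96e-05) and -1.21 for visceral fat (adjusted p = 3.51e-05). Between depots 0 of the 7 passed limma's test in control steers (1 at an unadjusted p under 0.05, and 0 by the methods' t-test after Benjamini-Hochberg adjustment). In high fat steers bta-miR-424 passed, with a value of -1.02 (adjusted p = 0.00257), and by the methods' t-test so adjusted 5 of the 7 did. Over all 233 miRNAs limma called 44 in control and 61 in high fat steers, and the methods' t-test so adjusted called 20 and 85.

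Of 20 miRNAs listed for adipocyte differentiation or insulin sensitivity, all tested, 14 were higher and 2 lower in high fat steers in subcutaneous fat and 15 higher and 1 lower in visceral fat, with median log2 differences of 1.33 and 1.24 beside 0.10 and 0.17 over all 233. The 16 of 20 called in each depot stood beside 76% and 71.7% of all miRNAs, and those called higher beside 41.6% and 42.1%. Those called higher included bta-miR-130b in subcutaneous and bta-miR-33a in visceral fat. Both were detected on no control array, and with all control values at the floor they could not come out lower. The largest rises in subcutaneous fat were those of bta-miR-29b (3.93, adjusted p = 3.97e-09), of the insulin-responsive miR-29 family, and bta-miR-21 (3.83, adjusted p = 1.00e-13). These were detected on 7 and 4 of the 8 control arrays and stood at the floor on the others. In visceral fat the largest were bta-miR-27a-3p (4.17, adjusted p = 1.19e-06), known to restrain adipocyte differentiation, and bta-miR-130a (3.66, adjusted p = 1.59e-08), which targets the adipogenic factor PPARG, detected on 4 and 5 of 8 control arrays. bta-miR-155, known from inflammation, had values of -1.24 (adjusted p = 8.82e-06) and -1.57 (adjusted p = 1.77e-07), and bta-miR-378, encoded within PPARGC1B, -0.64 in subcutaneous fat (adjusted p = 0.00123). Between depots 1 was higher and 2 lower in visceral fat in control steers and 1 higher and 4 lower in high fat steers, beside 18.9% and 26.2% of all miRNAs called. By the methods' t-test after Benjamini-Hochberg adjustment 8 of the 20 passed in high fat steers, beside 85 of all 233. The rise in visceral fat was that of bta-miR-378, by 0.89 in control steers (adjusted p = 0.000399) and 1.49 in high fat steers (adjusted p = 1.24e-07). The largest falls in control steers were those of bta-miR-204, with a value of -1.47 (adjusted p = 0.0001003), and bta-miR-221, with -1.06 (adjusted p = 0.0139), which was detected on 4 of 8 visceral arrays and stood at the floor on the others. In high fat steers they were those of bta-miR-130b, with a value of -1.01 (adjusted p = 2.26e-07), and bta-miR-204, with -0.998 (adjusted p = 0.00338). bta-miR-130b was detected on 4 of 8 visceral arrays, but its visceral values all stood at the floor. Its value is thus the distance of the subcutaneous mean from the floor, set against a group without spread.

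Some markers of other cell types differed between diets, in both directions, and their part in the differences of the members was not tested. Among all 233 miRNAs 76% were called between diets in subcutaneous and 71.7% in visceral fat, 41.6% and 42.1% as higher in high fat steers. Both endothelial markers, bta-miR-126 and bta-miR-126*, were higher in high fat steers in both depots, with summed scaled intensities of 0.578 to 1.501 and 0.863 to 2.42 in control and 3.57 to 4.84 and 5.09 to 8.23 in high fat subcutaneous and visceral fat. However, bta-miR-126* was detected on 2 of 8 control subcutaneous and 3 of 8 control visceral arrays and stood at the floor on the others. The visceral level of bta-miR-126 also exceeded the subcutaneous one, by 0.66 in control steers (adjusted p = 0.0130) and 0.57 in high fat steers (adjusted p = 0.0273). The depot difference of bta-miR-126* did not pass in control (0.47, limma adjusted p = 0.272) or high fat steers (0.33, limma adjusted p = 0.451). Of the 3 blood cell markers bta-miR-451 was higher and bta-miR-486 lower in high fat steers in both depots, with sums of 0.109 to 0.368 over control and 0.0674 to 0.137 over high fat samples, while bta-miR-144 was detected on 1 array. Among control arrays bta-miR-451 was detected on 3 of 8 subcutaneous and 2 of 8 visceral ones and stood at the floor on the others. Of the 4 leukocyte markers bta-miR-142 was detected on no control array and on all 16 high fat arrays and bta-miR-150 on 1 array, bta-miR-155 was lower in both depots as given above, bta-miR-223 had diet differences of 0.10 in subcutaneous (adjusted p = 0.790) and -0.72 for visceral fat (adjusted p = 0.0334), and the sums were 0.164 to 0.455 in control steers and 0.203 to 0.992 in high fat steers. The defining marker of liver, bta-miR-122, was detected on 3 arrays. Of 7 markers of striated muscle bta-miR-208a and bta-miR-208b were detected on none, with a highest sum of 0.231. Of the 3 muscle markers tested, bta-miR-1 was called higher in high fat steers in both depots. It was detected on 0 of 8 control subcutaneous and 1 of 8 control visceral arrays and stood at the floor on the others. The diet differences of bta-miR-133a (0.23 and 0.07, limma adjusted p = 0.377 and 0.838) and bta-miR-133b (0.34 and 0.52, limma adjusted p = 0.427 and 0.231) did not pass. Of the adipose-rich miRNAs, bta-miR-378 and bta-miR-365-3p were detected on all arrays, bta-miR-143 on 21 and bta-miR-193b on 4.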

How the data were processed

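Total RNA of 32 fat samples from 16 steers was measured on 32 single-dye Agilent arrays, and the labels gave the diet, depot and steer of every sample. Per the file headers, the arrays were extracted with Feature Extraction 10.7.3.1. The authors deposited background-subtracted intensities of spots and the total intensity of each miRNA, not scaled between arrays, with 0.1 for a miRNA not detected. They also deposited a log2 table normalized to the 75th percentile in GeneSpring, whose 244 features with a value above 0 were matched to miRNAs by value (tolerance 0.0001).

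Each total intensity was scaled to the 75th percentile of its own array, taken over those 91 miRNAs that every array detected. Scaled values under the median of the lowest detected value per array (log2 -7.22) were set to it. The 233 miRNAs detected on at least 8 arrays and above that floor on some array were tested with limma 3.58.1 in R 4.3.3 (4 groups in 1 fit, two-sided, 28 residual degrees of freedom) and Benjamini-Hochberg adjustment within each contrast at 0.05. This test and the exact tests were tested on simulated data. Ratios, ranks and correlations were tested by two-sided exact permutation (numpy 2.4.6, scipy 1.17.1), adjusted over 5, 8 and 8 comparisons. The samples of a group came from different steers. Both depots came from the same steer, so the steer pairs them. The deviations of the 2 arrays of a steer from their group means correlated from -0.39 to 0.65 (median -0.06) over the 233 miRNAs. The steer also had the same position on both slides of its diet.

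Named miRNAs were the members, the 3 most like each, and in each list the 2 largest rises and falls past the threshold. The members and lists were chosen with earlier results of these data known. Alternatives were other scalings, background corrections, floors, filters, blocks, single probes, the methods' t-test and leaving out each steer. Normexp with an offset of 1 and the ratio of single probes were added after seeing the data. The 8 arrays per group limit the precision. No spot was saturated. Mature sequences were not used here.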

Additional observations from a re-analysis of the deposited data

Results flagged for a closer look

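The log2 ratio of bta-miR-103 over bta-miR-107 in subcutaneous fat of steer 202, fed the high fat diet, was 1.83, apart from the other 7 samples of its group, of which the next was 1.51. The rank of bta-miR-107 in subcutaneous fat of control steer 108 was 63, nearer the top than the next sample of its group at 79. Both stood apart by Dixon's gap test, which flags about 1 in 20 groups by chance and was run on 20 groups.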

How the results depend on the processing

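Of the alternatives, the scaling and the background correction changed most. With the 75th percentile over all miRNAs, which was the placeholder of 0.1 on 15 arrays, the diet difference was -3.42 (subcutaneous) and -3.67 (visceral) for bta-miR-103, -2.89 and -3.17 for bta-miR-107. In the authors' table these were -0.68, -0.30, -0.14 and 0.21 in the same order. Normexp with an offset of 50 gave 0.085 and 0.17 for bta-miR-103, neither past the threshold, and -0.67 and -0.39 for bta-miR-107. Quantile normalization gave 0.29 for bta-miR-103 in subcutaneous fat (adjusted p = 0.0515), and under the Bonferroni correction of the methods' t-test its 0.72 no longer passed (adjusted p = 0.117). Ranked among all miRNAs, its difference in rank was -4.38 places (nearer the top), no longer past the threshold.

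The ratio of the members under normexp differed between diets by 0.76 and 0.57 (offset 50) or 0.23 and 0.10 (offset 1). Between depots on the high fat diet it was -0.23 with offset 50, past the threshold. Its interaction was -0.19 and -0.12 under normexp with these offsets and -0.018 with the brighter probes.

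Without scaling the depot difference was -0.14 (control) and -0.57 (high fat) for bta-miR-103, -0.011 and -0.48 for bta-miR-107. The authors' table gave -0.067 for bta-miR-103 on the control diet, and the spike-ins -0.22 and -0.13 for the members on the high fat diet. On that diet bta-miR-103 passed with 0.48 (median), 0.48 (quantile), 0.27 (normexp) and 0.29 (methods' t-test, Benjamini-Hochberg). There bta-miR-107 passed with 0.58 (median), 0.48 (quantile), 0.45 (spot intensities), 0.49 and 0.47 (normexp, offsets 50 and 1), 0.39 (only the 91 miRNAs, and methods' t-test, Benjamini-Hochberg), 0.60 (dimmer probe) and 0.36 (brighter probe). On the control diet its dimmer probe gave 0.58 and passed. The interaction of the members was -0.25 and -0.28 (percentile over all miRNAs), -0.43 and -0.47 (no scaling), -0.071 and -0.11 (bta-miR-181a) and -0.23 and -0.27 (spike-ins). The cause was not tested.

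Leaving out each steer kept all diet differences of both members and of their ratio past the threshold. The depot difference of bta-miR-107 ran from 0.27 to 0.52 on the control diet, past the threshold without steer 108 or 111, and from 0.32 to 0.43 on the high fat diet, past it without steer 108, 111, 211 or 405. The interaction ran from -0.040 to 0.18 for bta-miR-103, from -0.13 to 0.11 for bta-miR-107 and from -0.048 to 0.11 for the ratio.

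With the steer as a replicate block, the depot differences of the scaled level had adjusted p of 0.362 and 0.193 for bta-miR-103 and 0.206 and 0.122 for bta-miR-107, and the rank gains on the high fat diet 0.0156 for both (exact sign-flip test over 8 steers). The block changed no call of the members. The numbers of called miRNAs were 177, 167, 44, 61 and 4 in the order diet subcutaneous, diet visceral, depot control, depot high fat and interaction, and ran over the alternatives from 79 to 226, 80 to 224, 4 to 50, 9 to 191 and 0 to 27. In all, 418 of the members' alternative values kept their direction and side of the threshold, 42 changed sign, 21 passed anew and 6 no longer passed.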
